A study of Mus musculus with 6 samples.

Results

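The proteasome genes were taken as all mouse genes whose symbol starts with Psma, Psmb, Psmc, Psmd, Psme, Psmf or Psmg, with Psmb8 and Psmb9 left out. The rule found 47 such genes, on 100 probe sets that the array annotation gives 1 symbol, among 18193 genes with such a probe set. A probe set was tested where its log2 expression value was above 4 on at least 3 of the 6 arrays. By that filter 46 of the 47 genes were tested, on 77 probe sets, among 9460 tested genes in all. Psmb11, the beta subunit of the thymus, was the 1 gene under the filter. Psme2 shares its only probe set with Psme2b, so it has no single symbol and lies outside the rule. Of the 77 probe sets 0 passed the filter through the values of 1 group alone, and 73 were above it on all 6 arrays. At the edge of the filter, Psma8 read 3.87 to 4.81 over the arrays and was kept, while a second, dimmer probe set of Psma1 reached at most 4.02, on 1 array, and was left out. The symbols also caught Psmc3ip, a recombination cofactor, and Psme3ip1, which binds an activator of the core. Neither is a proteasome subunit, and both are given apart from the 44 tested subunits, assembly factors, activators and inhibitor.

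The proteasome breaks down proteins that carry a chain of ubiquitin. Its barrel-shaped core is a stack of rings of alpha subunits, which form the gate, and rings of beta subunits, of which 3 kinds, Psmb5, Psmb6 and Psmb7, cut the protein. A regulatory particle caps the core: its base holds 6 ATPases that unfold the protein and pull it in, and its lid holds the enzyme that takes the ubiquitin off. Dedicated chaperones assemble core and base, and other activators can open the gate in place of the regulatory particle. In blood stem cells, which make protein slowly, the proteasome is known for removing regulators of self-renewal and of the cell cycle.

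The arrays measured blood stem cells from bone marrow of C57Bl/6 (CD45.1) mice, male and 10 weeks old, with no treatment named. All cells were Lineage-, Sca-1+ and c-Kit+ and fell in the side population, a gate in flow cytometry set around cells that expel a DNA-binding dye. The groups, Lower-SP and Upper-SP, are the lower and upper part of that gate, with 3 arrays each. Each array holds RNA of a pool of mice, the pools were sorted on separate days, and the RNA was amplified by 2 rounds of in vitro transcription, so a value is the mean over animals and cells of a pool. In such bulk RNA, fewer cells of a type and less RNA per cell cannot be told apart. Array values are given below in the order replicate 1, 2 and 3. A difference is always Lower-SP minus Upper-SP in log2 expression, with 3 arrays a group. Adjusted p-values are two-sided from limma with Benjamini-Hochberg adjustment over the 19613 tested probe sets, at a threshold of 0.05.

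Arrays correlated at r = 0.952 to 0.991 within a group and at 0.911 to 0.938 between groups, across probe sets, and 0 pairs were identical. Of the stem cell markers fixed for this check 8 of 8 measured genes were tested and 1 passed, Kit, which was lower in Lower-SP. Markers of T cells and red cells were at background. Neutrophil markers moved with the groups: 4 of the 7 tested were higher in Lower-SP. Their summed log2 level was 9.94 to 14.05 in Lower-SP and 7.89 to 9.42 in Upper-SP. S100a8 read 13.19, 12.60 and 9.16 in Lower-SP and 7.62, 7.87 and 6.95 in Upper-SP. Elane and Mpo, the listed neutrophil genes under the filter, were at background or nearly so. Of the plasma cell list 2 of 5 genes were tested and 1, Igha, was lower in Lower-SP, with a summed level of 5.62 to 9.53 against 11.3 to 12.6 and the other 3 genes at background. Of B cell and megakaryocyte markers 1 and 3 were tested and 0 passed. The part of these other cells in the proteasome values was not tested. The differences of the genes that passed are also given without Lower-SP replicates 1 and 2, the arrays with the most neutrophil RNA. A single Lower-SP array is then left, so no calls or p-values are read from that fit.

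The start regions of the genes are shown first, because subunit genes are known to share control elements. RefSeq windows on GRCm38.p6, 300 bases long and ending 50 bases after the start, were matched for 36 of the 44 genes. The letters CCGGAAG, read on both strands, are the core that ETS factors bind. They stood in the windows of 14 of 36 proteasome genes (38.9%), against 9.93% of 27025 genes with a window, tested here or not. They stood in 4 of the 7 lowered genes with a window (Psmc1, Psmd2, Psmd4 and Psmg3), and also in Psmd6, which was higher. The 150 bases before the start of 3 lowered base genes follow, with those letters or their reverse complement in capitals.
Psmc1, chr12:100110052-100110201, plus strand: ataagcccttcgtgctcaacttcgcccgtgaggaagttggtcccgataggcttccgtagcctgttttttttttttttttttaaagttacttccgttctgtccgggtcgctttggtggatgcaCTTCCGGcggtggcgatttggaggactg
Psmd2, chr16:20651502-20651651, plus strand: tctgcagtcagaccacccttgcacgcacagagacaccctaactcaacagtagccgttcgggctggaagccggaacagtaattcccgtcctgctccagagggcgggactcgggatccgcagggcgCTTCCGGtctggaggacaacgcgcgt
Psmd4, chr3:95042615-95042764, minus strand: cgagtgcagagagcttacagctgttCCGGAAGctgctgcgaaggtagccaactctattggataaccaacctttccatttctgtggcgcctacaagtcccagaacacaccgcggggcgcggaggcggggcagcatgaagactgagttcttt

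The antioxidant response element, TGACNNNGC on either strand, is the kind of site through which Nfe2l1 and Nfe2l2 are known to raise proteasome genes. Windows of 6 of 36 proteasome genes held it (16.7%), against 14% of all genes with a window. Those 6 were Psmb5, Psmb6, Psmc6, Psmd9, Psmd12 and Psme4, and 0 of the 7 lowered genes was among them. The same stretch of the catalytic genes Psmb5 and Psmb6 is printed with the element in capitals.
Psmb5, chr14:54617996-54618145, minus strand: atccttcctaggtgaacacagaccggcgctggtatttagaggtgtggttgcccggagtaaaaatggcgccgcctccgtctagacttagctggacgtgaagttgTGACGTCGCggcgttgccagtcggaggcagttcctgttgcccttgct
Psmb6, chr11:70525207-70525356, plus strand: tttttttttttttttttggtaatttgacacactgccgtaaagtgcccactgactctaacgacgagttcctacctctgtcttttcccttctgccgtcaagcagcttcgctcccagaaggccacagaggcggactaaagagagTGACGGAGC
A match is a description of letters within this window and was not set against binding. The CCAAT box, CCAAT on either strand, stood in 33.3% of proteasome genes and 41.1% of all genes, and GCATGCGC in 8.33% and 3.05%. None of these motifs contains another, though matches may overlap.

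Of the 46 genes the rule took, 8 fell and 2 rose in Lower-SP, and 36 did not pass. Of the 44 without the genes caught by name only, 8 fell and 1 rose. The genes that fell were Psmd2, Psmd8, Psmc3, Psmg3, Psmd14, Psmd4, Psme1 and Psmc1, by 1.46-fold to 2.03-fold, and those that rose were Psmd6 and Psmc3ip. A share of 17.4% lower stands beside 20.7% of all tested genes, and 4.35% higher beside 7.05%, so neither share lay above that of genes in general. The median difference of the 46 genes was -0.12, against -0.24 over all tested genes, and 26 of the 46 (56.5%) were below zero, against 64.4%. Leaving out 1 array put the median at -0.05 (without Upper-SP replicate 1) to -0.14 (without Upper-SP replicate 3), with -0.07 without Lower-SP replicate 1 or Upper-SP replicate 2. Read through RefSeq mRNA probe sets alone, in 22 genes, it was -0.20, against -0.395 over all genes so read. In 12 genes (26.1%) all 3 Lower-SP values lay below all 3 Upper-SP values, and in 6 (13.0%) above them, where all tested genes gave 32.3% and 13.4%. Without adjustment 13 genes (28.3%) had p under 0.05 on the lower side and 5 (10.9%) on the higher side, against 31% and 10.9% of all tested genes. The mean level of the 46 genes was 9.28, 9.23 and 9.38 in Lower-SP and 9.45, 9.39 and 9.28 in Upper-SP, so the groups overlapped. Upper-SP replicate 3 stood at the level of Lower-SP replicate 1, and was the lowest of its group in 26 of the 46 genes (56.5%), against 49.7% of all tested genes.

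**Figure D1:**
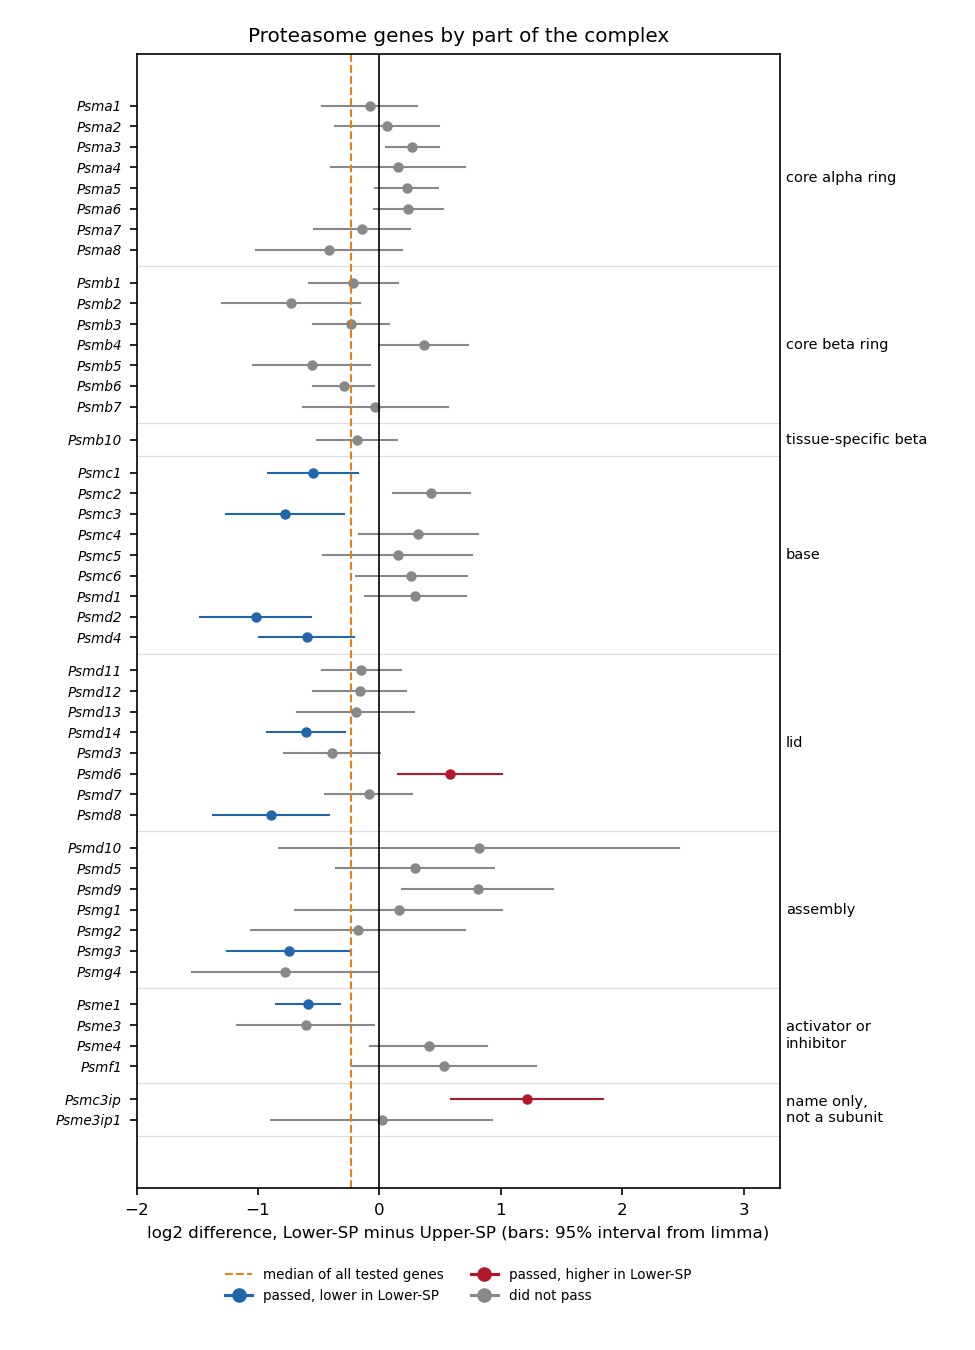
Log2 difference of each tested proteasome gene, Lower-SP minus Upper-SP, on the horizontal axis, with genes grouped by part of the complex. Points are the fitted differences (3 arrays a group), bars the 95% interval from limma, blue and red mark the 8 lower and 2 higher genes, and the dashed line is the median of all tested genes (-0.24). Of the core rings 0 genes are coloured and of the base 4 are blue. With cyclic loess scaling the median of the proteasome genes turns from -0.12 to 0.05.

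How the arrays were scaled set the balance of directions. The deposited scaling gave 8 lower and 2 higher. Centring each array on its median gave 6 and 5 (all tested genes 17.4% and 8.38%), quantile normalization 4 and 7 (16.4% and 8.89%), and cyclic loess 3 and 8 (14.5% and 9.76%). Cyclic loess moved the median of all tested genes from -0.24 to -0.12 and that of the proteasome genes from -0.12 to 0.05. Under cyclic loess Psmd2, Psmd8 and Psme1 kept their lower call. Psmd6 and Psmc3ip kept their higher call, and Psma3, Psma5, Psma6, Psmb4, Psmc2 and Psmd9 were called higher besides. The calls also changed when 1 array was left out. Without Upper-SP replicate 1 there were 0 calls (8 lower and 2 higher at an unadjusted p under 0.05), and all tested genes gave 4.43% lower and 2.98% higher. The 8 lowered genes then lay at -0.47 (Psmd4) to -0.96 (Psmd2). Whether the fewer arrays or that array itself removed the calls was not tested. Leaving out Upper-SP replicate 2 gave 3 lower and 1 higher (all tested genes 8.3% and 4.23%), and leaving out Upper-SP replicate 3 gave 9 and 3 (22.5% and 7.36%). For the Lower-SP arrays the counts were 4 and 1 when replicate 1 was left out (13.1% and 4.83%), 3 and 0 for replicate 2 (10.4% and 4.42%), and 10 and 4 for replicate 3 (24.4% and 8.2%). The shares of all tested genes thus moved with those of the proteasome genes. Without both Lower-SP replicates 1 and 2, a single Lower-SP array is left, and the spread of that group cannot be judged. Psmd2 then lay at -1.10, Psmc3ip at 1.58 and Psmd10 at 2.71. The kept array was the highest for Psmd10, whose difference was -0.13 without it. The other genes that passed are given with their parts below.

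**Figure D2:**
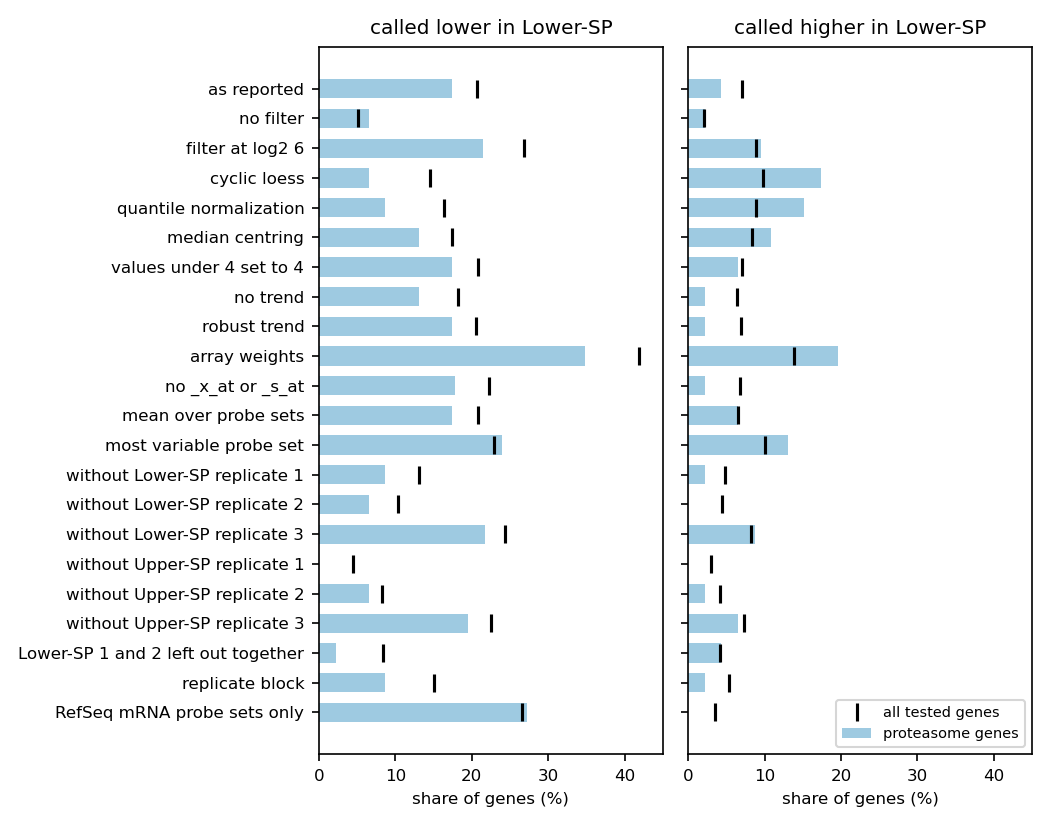
Share of proteasome genes (bars) and of all tested genes (black ticks) called lower or higher in Lower-SP, in percent, for the analysis as reported and for each alternative named on the vertical axis. The bar for lower calls is 17.4% as reported, is longest with array weights, at 16 of 46 genes, and is 0 without Upper-SP replicate 1. The tick lies at 20.7% as reported, at 41.9% with array weights and at 4.43% without Upper-SP replicate 1. The bars for Lower-SP replicates 1 and 2 left out together rest on a single Lower-SP array.

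In the core, Psmb10 included, 0 of 16 genes passed in either direction, where all tested genes gave 20.7% lower and 7.05% higher. Unadjusted, 3 were lower and 1 higher at p under 0.05 (18.8% and 6.25%, against 31% and 10.9%), with a median difference of -0.11. These counts read each gene through its brightest probe set. Dimmer probe sets of Psma3 (-0.86) and Psmb3 (-1.11) passed as lower, and those of Psma1 (1.02) and Psma6 (1.03) as higher. The alpha ring, which forms the gate, had 8 tested genes with a median of 0.11, and 3 of the 8 were below zero. Without probe sets named _x_at or _s_at this median turned to -0.01. Psma3 read 12.95, 12.90 and 12.73 in Lower-SP and 12.58, 12.61 and 12.56 in Upper-SP. Its groups did not overlap, but the difference of 0.27 (SE 0.09, interval 0.05 to 0.49) missed the threshold (limma adjusted p = 0.066). Psma5 was likewise apart, at 11.56, 11.63 and 11.64 against 11.36, 11.52 and 11.27. Its difference of 0.23 had an adjusted p of 0.16. Psma6 differed by 0.24 and Psma4 by 0.15, and neither passed. The direction of Psma3, Psma5 and Psma6 turned in another tested probe set, at -0.86, -0.12 and -0.34. The remaining tested probe sets of Psma6 lay at 0.01 and 1.03, and the latter passed as higher (limma adjusted p = 0.033). Through their brightest probe sets Psma1 and Psma2 stood closest to zero: Psma1 at -0.08 (interval -0.47 to 0.31) and Psma2 at 0.07 (-0.36 to 0.50). Psma7 differed by -0.14. Psma8, an alpha subunit used in the testis in place of Psma7, was near background on every array and differed by -0.41 without passing.

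The beta ring had 7 tested genes with a median of -0.23, and 6 of the 7 were below zero, Psmb4 being the exception at 0.36, and the other tested probe set of Psmb4 lay at -0.40. None of the 7 passed, and 3 were lower at an unadjusted p under 0.05 (42.9%, against 31% of all tested genes): Psmb2, Psmb5 and Psmb6. Psmb5, which cuts after hydrophobic residues and is the target of bortezomib, read 9.95, 9.83 and 10.29 in Lower-SP and 10.83, 10.71 and 10.19 in Upper-SP. Lower-SP replicate 3 lay above Upper-SP replicate 3, so the groups overlapped, and the difference of -0.56 (SE 0.21) had a limma adjusted p of 0.081. Psmb6, which cuts after acidic residues, read 11.61, 11.57 and 11.80 against 12.03, 11.91 and 11.93. Its groups did not overlap, and its difference of -0.29 (SE 0.11, interval -0.55 to -0.04) had an adjusted p of 0.080. Psmb7, which cuts after basic residues, stood at -0.03 (interval -0.63 to 0.57). Psmb2, a structural subunit, read 7.98, 8.61 and 8.78 against 9.46, 9.03 and 9.06, with a difference of -0.73 and an adjusted p of 0.060. The remaining structural subunits Psmb1 and Psmb3 differed by -0.21 and -0.23, and a dimmer probe set of Psmb3 passed at -1.11 (limma adjusted p = 0.019). Psmb10, the catalytic subunit that takes the place of Psmb7 in the immunoproteasome, read 10.60, 10.45 and 10.61 against 10.85, 10.51 and 10.86. These values overlapped, and the difference was -0.18 (interval -0.51 to 0.15).

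The base held 4 of the 8 genes that fell, out of 9 tested (44.4%, against 20.7% of all tested genes), and 0 that rose, against 7.05%. Its median was 0.15, since the other 5 genes were all above zero, but turned to -0.38 without probe sets named _x_at or _s_at and to -0.12 without both Lower-SP replicates 1 and 2. Under cyclic loess 1 of the 9 was lower, Psmd2, and 1 higher, Psmc2. Psmd2, a scaffold that receives ubiquitin-like shuttle proteins, had the largest difference among the lowered proteasome genes. It read 8.14, 8.65 and 8.28 in Lower-SP and 9.50, 9.48 and 9.16 in Upper-SP, means of 8.36 ± 0.26 and 9.38 ± 0.19 (SD, n = 3). The groups lay well apart, and Psmd2 fell by 1.02 (SE 0.20, 2.03-fold, limma adjusted p = 0.0100). Psmd4, a receptor for ubiquitin chains, read 11.32, 11.09 and 11.21 against 12.07, 11.90 and 11.45. It fell by 0.60 (SE 0.17, adjusted p = 0.034), with Upper-SP replicate 3 closest to the Lower-SP arrays. Psmd1, the other large scaffold, was higher on average at 9.48, 9.51 and 9.79 against 9.39, 9.02 and 9.48, and its difference of 0.30 (SE 0.18) did not pass.

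Of the 6 ATPases of the base 2 fell and 0 rose, where all tested genes gave 20.7% and 7.05%. Psmc3 read 10.92, 10.63 and 11.30 in Lower-SP and 11.78, 11.98 and 11.40 in Upper-SP, and fell by 0.77 (SE 0.21, limma adjusted p = 0.030). Psmc1 read 8.47, 8.42 and 8.68 against 9.13, 9.12 and 8.96, and fell by 0.55 (SE 0.16, adjusted p = 0.039). Both were apart in all arrays. Psmc2 was apart in the opposite direction, at 12.59, 12.43 and 12.11 against 11.87, 12.01 and 11.96, and its difference of 0.43 (SE 0.14) just missed the threshold (adjusted p = 0.051). The other tested probe set of Psmc2 lay at -0.38, in the direction of Psmc1 and Psmc3. Psmc4, Psmc5 and Psmc6 differed by 0.32, 0.15 and 0.26, with intervals of -0.17 to 0.81, -0.46 to 0.76 and -0.20 to 0.72. A dimmer probe set of Psmc4 passed as lower (-0.84, limma adjusted p = 0.030), and one of Psmc6 as higher (1.75, 0.0048). In the complex these 6 proteins sit in 1 ring in equal number, which their array signals need not follow, and the contrast between the ATPase genes was not tested. Psmc1 and Psmc3 lost their calls without any 1 of Lower-SP replicates 1 and 2 and Upper-SP replicates 1 and 2. Psmc1 then lay at -0.49 to -0.52 (adjusted p 0.099 to 0.15) and Psmc3 at -0.61 to -0.76 (0.078 to 0.11). Psmd4 lost its call without those arrays or Lower-SP replicate 3, at -0.47 to -0.65 (0.053 to 0.13). Among alternatives with more than 1 array a group, Psmd2 lost its call only without Upper-SP replicate 1 (-0.96, adjusted p = 0.060). Without both Lower-SP replicates 1 and 2, Psmd4 was at -0.60, Psmc3 at -0.43 and Psmc1 at -0.39.

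In the lid 2 of 8 tested genes fell (25.0%, against 20.7% of all tested genes) and 1 rose (12.5%, against 7.05%). The median was -0.18, with 7 of the 8 below zero, and turned to 0.01 with cyclic loess. Psmd8, needed for the lid to come together, read 8.40, 8.41 and 8.12 in Lower-SP and 9.32, 9.42 and 8.85 in Upper-SP. It fell by 0.89 (SE 0.21, 1.85-fold, limma adjusted p = 0.018). Psmd14, the metalloprotease that removes the ubiquitin chain, read 9.96, 9.76 and 9.64 against 10.42, 10.37 and 10.37. The Upper-SP arrays differed little from each other, and Psmd14 fell by 0.60 (SE 0.14, 1.52-fold, adjusted p = 0.018). Psmd6, a structural lid subunit, went the other way. It read 11.36, 11.20 and 11.19 against 10.30, 10.70 and 11.01, with no overlap, and rose by 0.58 (SE 0.18, adjusted p = 0.049). Psmd7, the inactive partner of Psmd14, and Psmd11 stood closest to zero, at -0.09 (interval -0.44 to 0.27) and -0.15 (-0.47 to 0.18). Psmd3 read 8.71, 8.74 and 8.88 against 9.36, 9.20 and 8.94, apart in all arrays but not past the threshold (-0.39, adjusted p = 0.13). Psmd12 and Psmd13 differed by -0.16 and -0.19. The call of Psmd8 was lost without Upper-SP replicate 1 (-0.83, adjusted p = 0.087) or 2 (-0.78, 0.071). That of Psmd14 was lost without those arrays or Lower-SP replicate 2 (-0.58 to -0.61, adjusted p 0.060 to 0.083). With 1 array left out, Psmd6 passed only without Upper-SP replicate 3, and lay at 0.40 to 0.61 (0.063 to 0.15) in the other 5 cases. With all arrays its call was lost with no filter (adjusted p = 0.14), no trend (0.088), a robust trend (0.052) or the replicate block (0.091). The mean over its probe sets lay at 0.13 and did not pass. Without both Lower-SP replicates 1 and 2, Psmd14 lay at -0.75, Psmd8 at -1.08 and Psmd6 at 0.52.

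**Figure D3:**
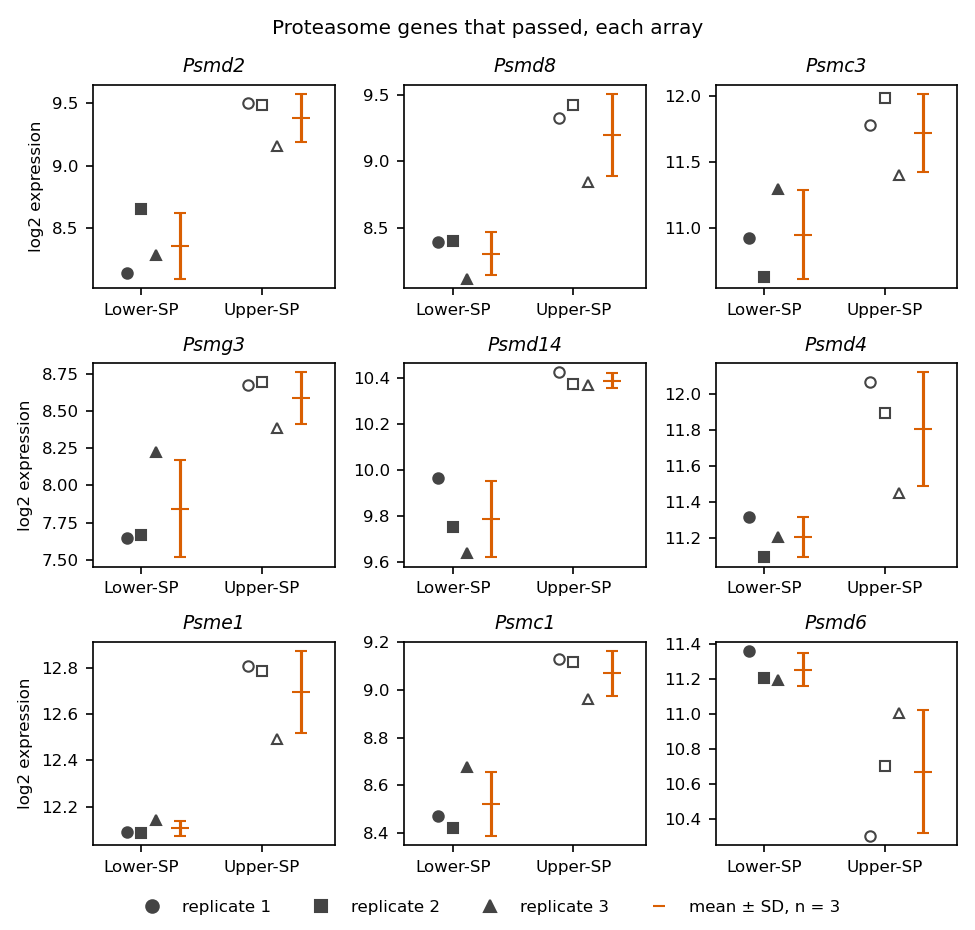
Log2 expression (vertical axis, own range in each panel) of the 9 proteasome genes that passed, on each Lower-SP array (filled) and Upper-SP array (open), with circles, squares and triangles for replicates 1, 2 and 3. Orange marks give mean ± SD, n = 3. In 8 panels every filled mark lies below every open one, in the panel of Psmd6 every filled mark lies above, and the triangle of Upper-SP is closest to Lower-SP in 9 of 9.

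Of 7 tested assembly factors 1 fell (14.3%, against 20.7% of all tested genes) and 0 rose (against 7.05%), with a median of 0.16. Psmg3, a chaperone of the alpha ring, read 7.64, 7.66 and 8.22 in Lower-SP and 8.68, 8.70 and 8.39 in Upper-SP, and fell by 0.75 (SE 0.22, limma adjusted p = 0.040). Its partner Psmg4 read 6.54, 6.90 and 5.86 against 7.58, 7.22 and 6.82, and its difference of -0.78 (SE 0.33) did not pass (adjusted p = 0.12). The other pair of alpha ring chaperones, Psmg1 and Psmg2, had wide spreads and differed by 0.16 (interval -0.70 to 1.01) and -0.18 (-1.06 to 0.71). Psmg3 lost its call without any 1 of Lower-SP replicates 1 and 2 and Upper-SP replicates 1 and 2 (-0.65 to -0.70, adjusted p 0.11 to 0.15). Without both Lower-SP replicates 1 and 2 it lay at -0.37.

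Through their brightest probe sets, the tested chaperones that build the base were higher on average, and none passed. Psmd9 read 9.81, 9.54 and 9.25 in Lower-SP and 8.53, 8.37 and 9.27 in Upper-SP. Upper-SP replicate 3 lay above Lower-SP replicate 3, and the difference was 0.81 (SE 0.27, limma adjusted p = 0.058). The other tested probe set of Psmd9, annotated to a RefSeq mRNA, lay at -0.05. Psmd5 differed by 0.29 (interval -0.36 to 0.95). Psmd10, also known as gankyrin, read 4.76, 4.34 and 7.39 against 4.59, 4.80 and 4.63. A single array, Lower-SP replicate 3, stood apart from the other 5, and the difference of 0.82 (interval -0.83 to 2.47) did not pass. With that array alone for Lower-SP, the difference of Psmd10 was 2.71, and without that array it was -0.13.

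Of 4 tested activators and inhibitors of the core 1 fell (25%, against 20.7% of all tested genes) and 0 rose (against 7.05%). Their median of -0.09 turned to 0.10 with cyclic loess. Psme1, part of the interferon-induced activator, read 12.09, 12.08 and 12.14 in Lower-SP and 12.81, 12.79 and 12.49 in Upper-SP. The Lower-SP arrays lay close together, and Psme1 fell by 0.59 (SE 0.11, 1.51-fold, limma adjusted p = 0.0097). Among alternatives with more than 1 array a group, Psme1 lost its call only without Upper-SP replicate 1 (-0.53, adjusted p = 0.055). Without both Lower-SP replicates 1 and 2 it lay at -0.55. Psme3, the nuclear activator, read 7.67, 7.73 and 7.56 against 8.49, 7.78 and 8.52, and its difference of -0.61 (SE 0.24) did not pass (adjusted p = 0.099). Psme4, an activator that works largely in the nucleus, read 9.72, 9.33 and 9.22 against 9.05, 9.27 and 8.73, with a difference of 0.41 (SE 0.21, adjusted p = 0.18). Psmf1, the inhibitor, read 7.42, 6.80 and 7.24 against 6.85, 7.02 and 5.98, with a difference of 0.53 (interval -0.22 to 1.29).

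The genes caught by name only differed in their values. Psmc3ip, which helps strand exchange in meiotic recombination, read 7.25, 7.88 and 8.11 in Lower-SP and 6.70, 6.37 and 6.52 in Upper-SP. It rose by 1.22 (SE 0.27, 2.33-fold, limma adjusted p = 0.015). The call was lost without Lower-SP replicate 2 (1.15, adjusted p = 0.056), Upper-SP replicate 1 (1.30, 0.058) or Upper-SP replicate 2 (1.14, 0.060). Without both Lower-SP replicates 1 and 2 the difference was 1.58. Psme3ip1 stood at 0.02 (interval -0.89 to 0.93). With both left out, 8 of 44 genes were lower and 1 higher, with a median of -0.15.

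Many proteasome genes were measured by several probe sets, and these often disagreed. Among the 21 genes read by more than 1 tested probe set, 13 gave differences of both signs and 0 gave calls in opposite directions. How often other genes with several tested probe sets do so was not analysed here. Psmc4 is an example within the base: its brighter probe set differed by 0.32, while the other read 8.47, 8.02 and 8.67 in Lower-SP and 9.50, 9.18 and 8.98 in Upper-SP and fell by 0.84 (SE 0.23, limma adjusted p = 0.030). Psma3 had a dimmer probe set at 9.18, 9.05 and 9.16 against 9.95, 10.05 and 9.98, which fell by 0.86 (adjusted p = 0.0053), against 0.27 for the brighter one. The dimmer probe set of Psmb3 (6.06, 5.62 and 5.74 against 7.28, 6.85 and 6.62) also passed, at -1.11. In the opposite direction, dimmer probe sets of Psmc6 (7.04, 6.39 and 7.04 against 4.97, 4.98 and 5.27), Psma1 and Psma6 passed as higher, at 1.75, 1.02 and 1.03.

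Psme4 had 6 tested probe sets, all with positive differences, from 0.22 to 2.31. The 1 that passed read 6.42, 6.70 and 6.26 in Lower-SP and 4.34, 4.22 and 3.90 in Upper-SP, close to the filter level there. Both tested probe sets of Psme3 were lower, and the dimmer one passed (6.72, 6.59 and 6.61 against 7.59, 7.54 and 7.13, limma adjusted p = 0.032). Psmf1 split, at 0.53, 0.33 and -1.0, and none of its probe sets passed. Among the 8 lowered genes 6 had 1 tested probe set, and the other 2, Psmd4 and Psmg3, had probe sets of both signs: Psmd4 at -0.60, -0.85 and 0.20, and Psmg3 at -0.75 and 0.35. The other probe set of Psmd6 lay at -0.32. Which transcripts each probe set reads was not analysed here.

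**Figure D4:**
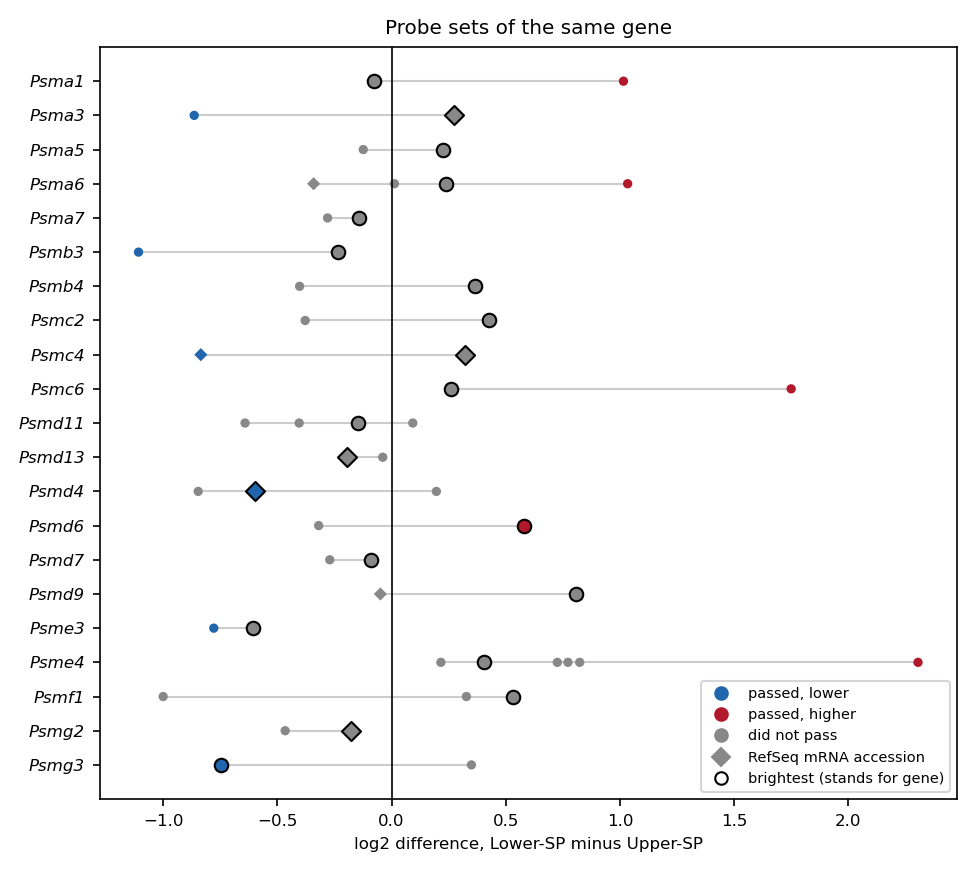
Log2 difference, Lower-SP minus Upper-SP, of every tested probe set of the 21 proteasome genes with at least 2, joined by a line within a gene. Outlined marks are the brightest probe set, which stands for the gene, diamonds mark a RefSeq mRNA annotation, and blue and red mark calls. In 13 genes the line crosses zero, and Psme4 lies wholly to the right, reaching 2.31.

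Annotation of the probe set moved with the calls. Where the annotated accession was a RefSeq mRNA, 7 of 23 proteasome probe sets were lower (30.4%) and 0 higher, and the median difference was -0.21. All 2687 such probe sets with 1 symbol gave 26.4% lower and 3.61% higher, with a median of -0.38. Of the 54 proteasome probe sets with another annotation 5 were lower (9.26%) and 6 higher (11.1%), with a median of -0.01. All 13367 of that kind gave 16.7% and 9.94%, with a median of -0.13. Among the lowered genes, 6 of 8 (Psmd2, Psmd4, Psmd14, Psmc1, Psmc3 and Psme1) are represented by a RefSeq-annotated probe set, and Psmd8 and Psmg3 are not. Read through RefSeq probe sets alone, 6 of 22 proteasome genes were lower and 0 higher, where all genes so read gave 26.6% and 3.55%. The part of the annotation in the balance of directions was not tested.

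The genes that work with the proteasome were listed by function, and 23 of 30 had a tested probe set. Of these 4 fell (17.4%) and 2 rose (8.7%), near the 20.7% and 7.05% of all tested genes, and the median was -0.12, against -0.24. Nfe2l1, the transcription factor that raises subunit genes when the proteasome is short, read 9.06, 9.59 and 9.36 in Lower-SP and 10.32, 10.26 and 10.18 in Upper-SP. It fell by 0.91 (SE 0.17, limma adjusted p = 0.0087). Ngly1, the enzyme that removes sugar chains from Nfe2l1 and other proteins, read 7.39, 7.23 and 6.52 against 8.61, 8.60 and 8.0, and fell by 1.36 (SE 0.30, adjusted p = 0.015). Vcp, the ATPase that draws ubiquitinated proteins out of membranes, fell by 0.39 (SE 0.12, adjusted p = 0.047), and its cofactor Faf1 by 0.87 (SE 0.25, 0.037). As background, Vcp and Ngly1 both act on the Nfe2l1 protein before it can enter the nucleus.

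Rad23b, a shuttle that carries ubiquitinated proteins to the proteasome, rose: it read 7.74, 7.52 and 7.82 in Lower-SP and 6.62, 6.56 and 6.73 in Upper-SP, a difference of 1.06 (SE 0.20, limma adjusted p = 0.0090). Ube3a, a ubiquitin ligase that binds the proteasome, rose by 0.68 (SE 0.15, adjusted p = 0.014), at 11.17, 10.82 and 10.84 against 10.22, 10.18 and 10.39. Nfe2l2, the related stress factor, differed by 0.36 (SE 0.14) and did not pass (adjusted p = 0.10). Pomp, which completes the core, differed by -0.53 (adjusted p = 0.068), and the proteasome-bound deubiquitinases Usp14 and Uchl5 by 0.00 (interval -0.55 to 0.56) and 0.12 (-0.32 to 0.56). Adrm1 and 6 other listed genes were not analysed here. With cyclic loess Nfe2l1 (-0.72), Ngly1 (-1.22), Rad23b (1.17) and Ube3a (0.87) kept their calls, and Vcp (-0.20, adjusted p = 0.28) and Faf1 (-0.70, 0.065) lost theirs. Nfe2l2 (0.55, 0.029), Sem1 (0.44, 0.027), Txnl1 (0.48, 0.034) and Zfand5 (0.68, 0.045) were called higher besides. In that setting 2 were lower and 6 higher, where all tested genes gave 14.5% and 9.76%. Quantile normalization also gave 2 lower and 6 higher (all tested genes 16.4% and 8.89%). Without both Lower-SP replicates 1 and 2, Nfe2l1 lay at -0.89, Ngly1 at -1.89, Vcp at -0.23, Faf1 at -0.41, Rad23b at 1.19 and Ube3a at 0.57. Without Upper-SP replicate 1, 0 of the 23 passed (6 at an unadjusted p under 0.05), where all tested genes gave 4.43% lower and 2.98% higher. Without Upper-SP replicate 2, 2 passed (all tested genes 8.3% and 4.23%).

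**Figure D5:**
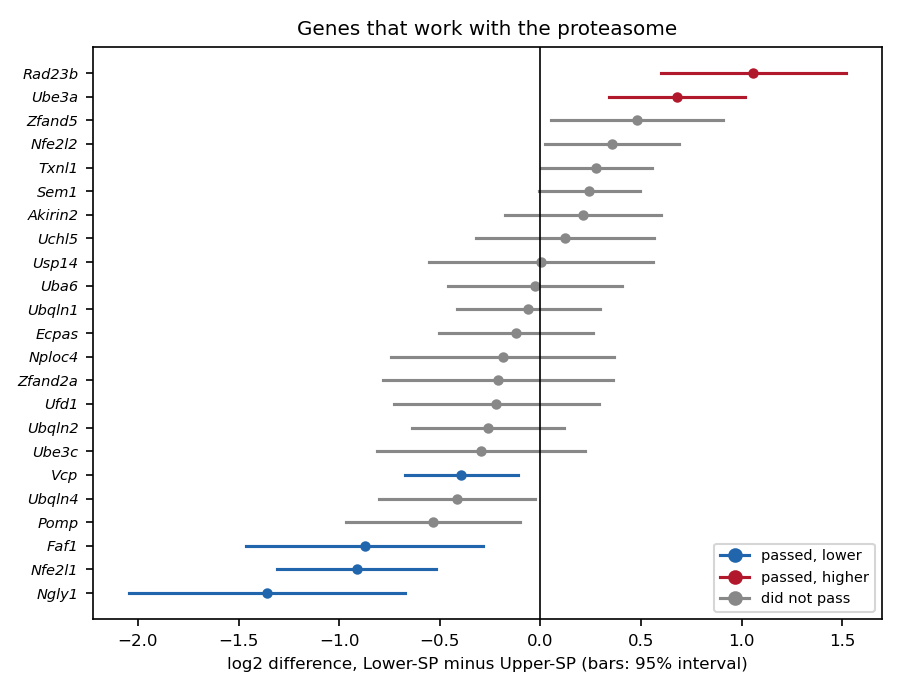
Log2 difference, Lower-SP minus Upper-SP, of 23 genes that work with the proteasome, in order of size. Points are fitted differences (3 arrays a group), bars the 95% interval from limma, blue marks the 4 genes that fell and red the 2 that rose. Ngly1 lies lowest at -1.36 and Rad23b highest at 1.06.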

How the data were processed

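RNA of sorted mouse stem cells was measured on 6 Affymetrix arrays. The table deposited by the authors holds log2 expression values, summarized with GCRMA after scanning with GCOS 1.0, per the submitters' processing notes. Settings and a genome build are not given in the sources used here. All 6 columns were mapped and 0 left out. Of 45101 probe sets 64 controls were left out, 34945 had 1 symbol, 932 several and 9160 none, and 0 symbols changed when updated. Probe sets above log2 4 on at least 3 arrays (19613) were fitted with limma 3.58.1 in R 4.3.3 (lmFit, eBayes with a trend, residual df 4, prior df 3.80, median SE of a gene 0.23). A gene was read through its brightest tested probe set. The number of arrays limits the precision. Tested on simulated data (19613 probe sets, 200 of them changed), the fit recovered 22% of changes of log2 1 and 70% of log2 2. Of its calls 6.12% were unchanged probe sets. In the data the fit called far more probe sets, 3430 lower and 2090 higher. The adjustment depends on how many change, so these rates do not give the recovery in the data.

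The members, gene lists and tests were chosen with earlier results of these data known. Named by rule were in each class the passing genes and the 2 closest to zero, the catalytic subunits, ATPases, chaperones, activators and inhibitor, and listed partners. Other subunits and probe sets were named after their values were seen. Alternatives changed the filter, scaling, background floor, variance model, array weights, probe set choice and arrays used. Restricting to RefSeq probe sets and dropping Psmc3ip and Psme3ip1 were added after seeing the data. Same-numbered arrays deviated from their group means with correlations of -0.05, -0.03 and -0.02, so the numbers were not taken as pairs.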

Additional observations from a re-analysis of the deposited data

How the results depend on the processing

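The count of lower proteasome genes was 8 as reported. As reported, all tested genes gave 20.7% lower and 7.05% higher. The count became 3 with no filter (all tested genes 5.12% lower), 3 with cyclic loess (14.5%), 4 with quantile normalization (16.4%) and 16 with array weights (41.9%). The replicate block, fitted although the numbers did not pair the arrays, gave 4 lower and 1 higher genes (all tested genes 15% and 5.39%). Other settings with all arrays kept the count within 1.5 times, and leaving out 1 array gave 0 to 10. The count of higher genes was 2. It became 1 with no filter (all tested genes 2.12% higher), no trend (6.45%), a robust trend (6.95%) or no probe sets ending in _x_at or _s_at (6.85%). Without the 2 genes matched by name only it was also 1 (7.05%). It was 0 with RefSeq mRNA probe sets only (3.55%), 4 with a filter at log2 6 (8.85%) and 5 with median centring (8.38%). With the most variable probe set it was 6 (10.1%), as with probe sets counted (8.88%). Quantile normalization gave 7 (8.89%), cyclic loess 8 (9.76%) and array weights 9 (13.8%). Leaving out 1 array gave 0 to 4. The partner genes called were 6. They were 3 with no filter (all tested genes 5.12% lower and 2.12% higher) or with RefSeq probe sets only (26.6% and 3.55%). The most variable probe set gave 10 (22.9% and 10.1%), probe sets counted 11 (18.4% and 8.88%) and array weights 12 (41.9% and 13.8%). With 1 array left out they were 0 to 7. The median of -0.12 turned to 0.046 with cyclic loess and 0.011 with quantile normalization. It was -0.028 with median centring, -0.19 without _x_at and _s_at names, -0.20 with RefSeq probe sets only and -0.28 with the most variable probe set. All tested genes gave medians of -0.15, -0.27, -0.395 and -0.32 in those settings.

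Among the genes with a call, no direction turned under the settings run. No setting read Psmd6, Psmg3 or Psmd4 through its probe set of the opposite sign alone, at -0.32, 0.35 and 0.20. Of the genes with no call as reported, some changed sign. With cyclic loess these were Psma1 (0.10), Psma7 (0.043), Psmb10 (0.011), Psmb7 (0.012), Psmd11 (0.049), Psmd12 (0.026) and Psmd7 (0.084). With quantile normalization they were Psma1 (0.062), Psma7 (0.011), Psmd11 (0.011) and Psmd7 (0.045), and with median centring Psma1 (0.010) and Psmb7 (0.056). With array weights they were Psma4 (-0.15), Psmb7 (0.013), Psme3ip1 (-0.47) and Psmg1 (-0.39). The most variable probe set turned Psma1 (1.02), Psma3 (-0.86), Psma5 (-0.12), Psmb4 (-0.40), Psmc2 (-0.38), Psmc4 (-0.84) and Psmf1 (-1.0). The mean over probe sets turned Psma1 (0.47), Psma3 (-0.30), Psmb4 (-0.019), Psmc4 (-0.26) and Psmf1 (-0.046). Leaving out _x_at and _s_at names turned Psma6 (-0.34), Psmb4 (-0.40), Psmc2 (-0.38) and Psmf1 (-1.0), and RefSeq probe sets only turned Psma6 (-0.34) and Psmd9 (-0.049). Without both Lower-SP replicates 1 and 2, Psma1 (0.0073), Psma2 (-0.27), Psma7 (0.13), Psmb1 (0.062), Psmc5 (-0.12) and Psmg2 (0.53) turned. Leaving out 1 array turned 9 genes, with ranges of Psma1 -0.20 to 0.017, Psma2 -0.10 to 0.23, Psma4 -0.066 to 0.29, Psmb7 -0.24 to 0.12, Psmc5 -0.070 to 0.35, Psmd10 -0.13 to 1.40, Psme3ip1 -0.39 to 0.27, Psmg1 -0.24 to 0.39, Psmg2 -0.53 to 0.024. The cause of these changes was not tested, beyond the fewer arrays or probe sets that some settings use by construction.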
